A study of Mus musculus with 6 samples.

Results

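Bone marrow-derived macrophages lacking Ch25h (Ch25hKO) were compared with wild-type macrophages (WT) across all genes, in 4 of the 6 RNA sequencing libraries of the study, chosen by genotype as the labels give it, with 2 libraries per genotype. Both groups came from C57BL/6 marrow, were grown with M-CSF, a growth factor that turns marrow cells into macrophages, to day 7, and then received 100 ng/ml lipopolysaccharide (LPS) of Escherichia coli, which macrophages sense through Toll-like receptors, for 8 h. The remaining 2 libraries, from macrophages lacking both liver X receptor genes (LXRdKO) and treated the same way, served as a further group. No unstimulated library was analysed here, so no value gives a response to LPS. The labels name no animals or cultures, so p-values rest on library-to-library spread alone, and that spread may be technical.

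Ch25h encodes cholesterol 25-hydroxylase, an enzyme that interferons and LPS induce in macrophages. Its product, 25-hydroxycholesterol, holds the SREBP transcription factors in the endoplasmic reticulum, which keeps genes of cholesterol synthesis low, and it can activate liver X receptors. Sterol synthesis, interferon-stimulated and cytokine genes are known readouts of this oxysterol in macrophages. The results below are mainly about the rest of the transcriptome.

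Total counts were 41650513 to 45872964 per library. Ch25h itself (chromosome 19, 34473783 to 34475148, GRCm38) measured 70.2 and 70.8 CPM in WT and 0.969 and 1.31 CPM in Ch25hKO (CPM, the count over the library's TMM-scaled depth), with 57.2 and 62.5 CPM in LXRdKO. Its level was far below WT in both Ch25hKO libraries, the direction their label gives. The ribosomal protein genes took 1.08% and 1.12% of counts in WT and 1.20% and 1.20% in Ch25hKO, and the nuclear transcript Malat1 took 1.10% and 1.48% in WT and 1.79% and 1.44% in Ch25hKO. The part of such shifts in the results was not tested.

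The differences between Ch25hKO and WT were broad and shallow. Of 12923 genes tested, 2557 were higher (19.8%) and 2516 lower (19.5%) in Ch25hKO at an adjusted p under 0.05 (quasi-likelihood F test in edgeR, Benjamini-Hochberg method), which is 39.3% in either direction. The median log2 fold change was 0.37 among genes called higher and -0.45 among genes called lower. At 2-fold or more, 194 genes (1.5%) were called higher and 413 (3.2%) lower. The median over all genes tested was 0.006. In LXRdKO against the same WT libraries, 16.4% of genes were called higher and 15.5% lower. Of the 2557 genes called higher, 1294 were also called higher than LXRdKO. Of the 2516 called lower, 1463 were also called lower than LXRdKO. Over all genes tested, 18.6% were called higher than LXRdKO and 19.3% lower. Both comparisons use the same Ch25hKO libraries, so these counts are not independent of each other and add no support. The libraries of both groups did not overlap for 68.3% of all genes tested, so a lack of overlap alone is common here. Of the genes called, 5072 did not overlap and 1 did. No overlap was also required of the genes named for the largest changes, so later remarks on it describe and add no support. Without the first Ch25hKO library, the number called higher was 1501.

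Changes of 2-fold or more were more often decreases at every expression level. Among genes under 1 CPM, 66 were called higher by 2-fold or more and 192 lower. Between 1 and 10 CPM these counts were 78 and 153, and between 10 and 100 CPM they were 42 and 54. Among the 1760 genes of 100 CPM or more, 21.8% were called higher and 34.7% lower, and changes of 2-fold or more were rare, with 8 higher and 14 lower. In CPM, the genes called lower lost 85321 in sum and the genes called higher gained 48012. With TMM-scaled depth such sums need not balance. All genes summed to 1020550 and 985749 CPM in WT and 960636 and 982902 in Ch25hKO. When genes were required to reach 5 CPM in 2 libraries, 68 were called higher by 2-fold or more and 130 lower.

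**Figure D1:**
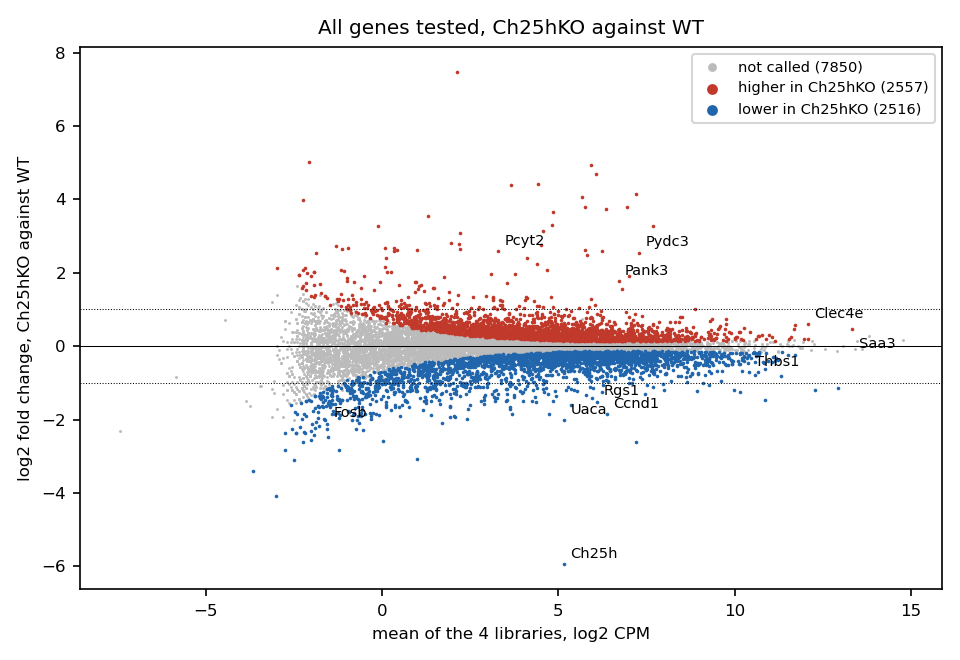
Log2 fold change of Ch25hKO against WT (vertical axis) against the mean of the 4 libraries in log2 CPM (horizontal axis) for the 12923 genes tested, with 1 point per gene. Red points are the 2557 genes called higher, blue points the 2516 called lower, and dotted lines mark 2-fold. Most called genes lie between the dotted lines.

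Among genes averaging at least 5 CPM outside the lists of sterol metabolism with liver X receptor targets, of interferon-stimulated genes and of cytokines, the largest increase was that of Pcyt2, which makes CDP-ethanolamine for phosphatidylethanolamine synthesis. It measured 2.70 and 2.88 CPM in WT and 16.8 and 16.7 CPM in Ch25hKO (log2 fold change 2.58 ± 0.11 (SE), adjusted p = 5.68e-12). Every Ch25hKO library lay far above every WT library, and the 2 LXRdKO libraries, at 2.28 and 2.74 CPM, lay close to WT. Pank3, a pantothenate kinase that controls the first step of coenzyme A synthesis, measured 46.1 and 48.0 CPM in WT and 163 and 159.8 CPM in Ch25hKO (log2 fold change 1.78 ± 0.06 (SE), adjusted p = 4.93e-14). Its paralog Pank1, a low gene near Ch25h, rose as well (log2 fold change 2.40 ± 0.29 (SE), adjusted p = 4.56e-06), at 0.383 and 0.299 CPM in WT and 2.01 and 1.63 CPM in Ch25hKO.

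Pydc3, named Ifi208 in RefSeq, belongs to the pyrin-domain family of interferon-inducible genes and measured 42.5 and 48.4 CPM in WT and 251 and 281 CPM in Ch25hKO (log2 fold change 2.55 ± 0.07 (SE), adjusted p = 3.33e-15). The family holds near-identical copies, so its reads may come in part from relatives. The Ch25hKO libraries stood apart from WT and from LXRdKO.

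Scarb1, Cyb5b and Epha4 were also among the largest increases. Scarb1, the receptor for high-density lipoprotein, measured 9.88 and 9.90 CPM in WT and 24.0 and 23.1 CPM in Ch25hKO (log2 fold change 1.25 ± 0.08 (SE), adjusted p = 9.04e-10). Cyb5b, the cytochrome b5 of the outer mitochondrial membrane, measured 34.7 and 35.7 CPM in WT and 87.2 and 85.4 CPM in Ch25hKO (log2 fold change 1.29 ± 0.05 (SE), adjusted p = 5.19e-12). Epha4, an ephrin receptor, measured 6.55 and 6.05 CPM in WT and 14.9 and 14.6 CPM in Ch25hKO (log2 fold change 1.23 ± 0.10 (SE), adjusted p = 2.25e-08). The groups did not overlap for any of the 3 genes.

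F13a1, the A chain of coagulation factor XIII, measured 9.57 and 9.46 CPM in WT and 24.0 and 24.3 CPM in Ch25hKO (log2 fold change 1.34 ± 0.07 (SE), adjusted p = 2.52e-10). Cbr2, a carbonyl reductase, measured 14.7 and 13.1 CPM in WT and 29.1 and 30.7 CPM in Ch25hKO (log2 fold change 1.11 ± 0.07 (SE), adjusted p = 3.13e-09). Aph1b, a subunit of gamma-secretase, measured 4.07 and 4.54 CPM in WT and 12 and 10.1 CPM in Ch25hKO (log2 fold change 1.36 ± 0.11 (SE), adjusted p = 4.53e-08). The Ch25hKO libraries were above both WT libraries in each case. Wwc2, Pdgfrb, Slc1a2, Mid1 and Tmc3 were also among the 15 largest increases, at log2 fold changes from 1.10 for Tmc3 to 1.33 for Wwc2.

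**Figure D2:**
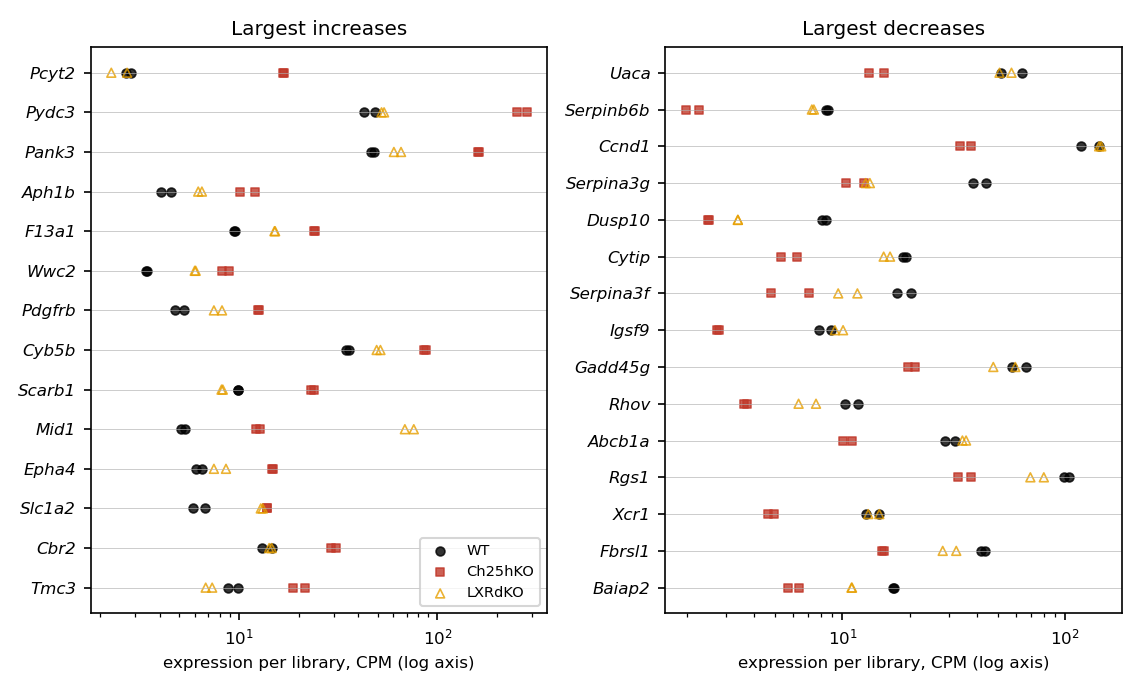
Expression in CPM (horizontal log axis) of 14 of the 15 genes with the largest increases (left) and the 15 with the largest decreases (right), with 1 mark per library: black circles WT, red squares Ch25hKO, open triangles LXRdKO. In every row the 2 Ch25hKO libraries lie on one side of the 2 WT libraries, which the choice of genes required.

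One short sequence searched was that of sterol regulatory elements, which SREBP factors are known to bind near sterol synthesis genes. TCACNCCA was searched on both strands in RefSeq windows from 250 bases before to 50 after each gene's start site (GRCm38.p6), and 10208 tested genes had at least 1 window. It was present for 4.97% of the 27025 genes of the whole table, for 4.49% of the tested genes and for 8.05% of the genes called at least 2-fold higher (12 of 149). With synthesis genes left out, the share was 7.09% (9 of 127), and among genes called at least 2-fold lower it was 4.59%. Of the 22 synthesis genes called at least 2-fold higher, 3 held it (13.6%), so most did not. Another motif, CCAAT, was present for 50.3% of the genes at least 2-fold higher, against 42.8% of tested genes. With synthesis genes left out its share was 45.7%, and among the 22 synthesis genes it was 77.3%. These shares were not tested. Of 495 matches in tested genes, 5 overlapped a match of TGANTCA, 9 a match of TGACGTCA, 15 a match of CCAAT and 1 a match of CACGTG. The windows of Hmgcs1, the synthesis gene that measured 17.4 and 15.8 CPM in WT and 227 and 229 CPM in Ch25hKO, and of Pank3 show the motif in capitals, upstream of the start site, on the plus strand of chr13:119690189-119690246 and chr11:35769340-35769397. In Pank3 the capitals hold the motif's reverse complement. A match describes letters and is not evidence of a bound site.
Hmgcs1: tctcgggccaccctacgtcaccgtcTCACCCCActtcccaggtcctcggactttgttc
Pank3: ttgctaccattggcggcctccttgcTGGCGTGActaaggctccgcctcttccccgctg

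By the same rule, and with Ch25h itself left out, the genes that fell were led by Uaca, a regulator of apoptosome assembly, which measured 63.8 and 51.6 CPM in WT and 13.2 and 15.4 CPM in Ch25hKO (log2 fold change -2.01 ± 0.11 (SE), adjusted p = 1.61e-07). Ccnd1, which encodes cyclin D1, the partner of CDK4 and CDK6 in G1, measured 142 and 117 CPM in WT and 33.9 and 37.9 CPM in Ch25hKO (log2 fold change -1.85 ± 0.08 (SE), adjusted p = 6.43e-10), with 145 and 142 CPM in LXRdKO. The Ch25hKO libraries of both genes lay below every other library.

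Of the serpins, inhibitors of proteases, Serpinb6b, Serpina3g and Serpina3f were among the 15 largest decreases. Serpinb6b measured 8.58 and 8.40 CPM in WT and 1.98 and 2.27 CPM in Ch25hKO (log2 fold change -2.0 ± 0.12 (SE), adjusted p = 1.01e-09). Serpina3g measured 44.1 and 38.5 CPM in WT and 10.3 and 12.5 CPM in Ch25hKO (log2 fold change -1.85 ± 0.09 (SE), adjusted p = 3.08e-11), and its LXRdKO libraries were also low, at 12.7 and 13.3 CPM. The change of Serpina3f had a wider error (log2 fold change -1.67 ± 0.16 (SE), adjusted p = 7.43e-06). Serpinb9, an inhibitor of granzyme B that was not among the 15, measured 59.7 and 61.0 CPM in WT and 25.6 and 27.4 CPM in Ch25hKO (log2 fold change -1.19 ± 0.06 (SE), adjusted p = 4.83e-11). WT and Ch25hKO did not overlap for any of the 4. The Serpina3 genes are near-identical neighbours, so the division of reads between them is uncertain.

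The other genes among the 15 largest decreases follow. Rgs1, which turns off G protein signals from chemokine receptors, measured 104 and 98.6 CPM in WT and 33.1 and 37.7 CPM in Ch25hKO (log2 fold change -1.51 ± 0.07 (SE), adjusted p = 9.7e-11). Dusp10, a phosphatase of JNK and p38 kinases, measured 8.46 and 8.13 CPM in WT and 2.51 and 2.50 CPM in Ch25hKO (log2 fold change -1.73 ± 0.12 (SE), adjusted p = 6.37e-09). Cytip, a regulator of leukocyte adhesion, measured 18.7 and 19.3 CPM in WT and 5.30 and 6.24 CPM in Ch25hKO (log2 fold change -1.72 ± 0.09 (SE), adjusted p = 1.78e-10). Each Ch25hKO library was below each WT library. Gadd45g, a stress-inducible gene, measured 66.4 and 57.6 CPM in WT and 19.8 and 21.1 CPM in Ch25hKO (log2 fold change -1.60 ± 0.11 (SE), adjusted p = 6.23e-07). Abcb1a, a multidrug efflux pump, measured 32.1 and 28.9 CPM in WT and 10.0 and 11.1 CPM in Ch25hKO (log2 fold change -1.53 ± 0.08 (SE), adjusted p = 6.58e-11), and its LXRdKO libraries were close to WT, at 34.5 and 35.9 CPM. Igsf9, Rhov, Xcr1, Fbrsl1 and Baiap2 complete the 15, with log2 fold changes from -1.49 to -1.60.

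In all, 7 motifs were searched in the same windows, and shares are given next for the genes called at least 2-fold lower. TGANTCA, the AP-1 motif, was present for 8.97% of the whole table, 6.64% of tested genes, 8.05% of genes at least 2-fold higher and 13.4% of genes at least 2-fold lower (41 of 305), or 12.5% with interferon-stimulated genes left out. The interferon-response motif, GAAA repeated after any 2 bases, was present for 3.99% of the whole table, 4.0% of tested genes, 2.68% of those at least 2-fold higher and 7.54% of those at least 2-fold lower (23 of 305), or 6.76% (20 of 296) with interferon-stimulated genes left out. The NF-kB motif, GGGA and TTTCC around any base, was present for none of the 305 genes, against 0.519% of tested genes, the ATF motif TGACGTCA for 2.95% against 3.50%, CCAAT for 47.9% against 42.8% and the E-box CACGTG for 6.56% against 11.5%. Of 744 AP-1 matches in tested genes, 5 overlapped TCACNCCA, 4 overlapped CCAAT and 11 overlapped CACGTG, and of 468 matches of the interferon motif, 3 overlapped CCAAT. These shares are descriptions and were not tested.

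The upstream windows of 5 genes that fell show these motifs in capitals. Rcan1, an inhibitor of calcineurin (-1.24), Tlr9, the receptor for unmethylated DNA (-1.16), and Csrnp1, a nuclear factor (-1.21), hold the AP-1 motif, Csrnp1 at 2 positions. Plk2, a polo-like kinase (-1.12), and Serpinb9 (-1.19) hold the interferon-response motif as its reverse complement. The values in brackets are log2 fold changes, and these genes were chosen for display after their values were seen. Pydc3, which rose, also has GAAATCGAAA at 58 bases before its start site. The windows lie at chr16:92400157-92400213 (minus strand), chr9:106222515-106222571 (plus), chr9:119983024-119983150 (minus), chr13:110394800-110394859 (plus) and chr13:33004470-33004529 (plus).
Rcan1: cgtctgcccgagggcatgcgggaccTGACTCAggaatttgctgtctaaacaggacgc
Tlr9: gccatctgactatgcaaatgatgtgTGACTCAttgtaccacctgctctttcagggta
Csrnp1: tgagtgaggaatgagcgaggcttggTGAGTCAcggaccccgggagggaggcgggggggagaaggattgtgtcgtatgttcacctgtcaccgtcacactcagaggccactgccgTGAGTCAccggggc
Plk2: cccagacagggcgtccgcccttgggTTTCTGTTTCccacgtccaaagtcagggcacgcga
Serpinb9: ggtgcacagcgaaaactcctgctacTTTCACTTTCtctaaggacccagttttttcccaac

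Outside the lists of sterol, interferon-stimulated and cytokine genes, the 8 genes with the largest gains in CPM rose by less than 2-fold. Saa3, an acute-phase apolipoprotein, measured 8714 and 8637 CPM in WT and 11718 and 12233 CPM in Ch25hKO (log2 fold change 0.47 ± 0.06 (SE), adjusted p = 9.5e-06). Clec4e, which encodes Mincle, a receptor for mycobacterial glycolipid, measured 3368 and 3533 CPM in WT and 5233 and 5173 CPM in Ch25hKO (log2 fold change 0.59 ± 0.06 (SE), adjusted p = 3.38e-07). Slc7a2, a transporter of arginine, measured 2719 and 2715 CPM in WT and 3736 and 3824 CPM in Ch25hKO (log2 fold change 0.48 ± 0.06 (SE), adjusted p = 2.99e-06). All 3 were higher in each Ch25hKO library than in any WT or LXRdKO library. Hmox1, which encodes heme oxygenase 1, measured 2728 and 2908 CPM in WT and 3275 and 3373 CPM in Ch25hKO (log2 fold change 0.24 ± 0.06 (SE), adjusted p = 0.00335).

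Sdc4, Neat1, Cybb and Lcp1 were the other large gains in CPM. The noncoding RNA Neat1 spread widely between replicates, at 552 and 746 CPM in WT and 1169.8 and 1001 CPM in Ch25hKO (log2 fold change 0.74 ± 0.15 (SE), adjusted p = 0.0115). Sdc4, a syndecan, rose by 0.30 on the log2 scale, or 0.20 without the second WT library. Cybb, the catalytic subunit of the phagocyte NADPH oxidase, and Lcp1, an actin-bundling protein, each rose by 0.21, and neither call was kept without the second WT library or without either Ch25hKO library.

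Outside the same lists, and among genes with an informative symbol, Slc28a2 lost the most CPM. The interferon-induced Ifit2 lost more, from means of 6879.6 CPM in WT to 3022 in Ch25hKO. Slc28a2, a nucleoside transporter, measured 2371 and 2163 CPM in WT and 1403 and 1522 CPM in Ch25hKO (log2 fold change -0.63 ± 0.07 (SE), adjusted p = 8.63e-07). Thbs1, which encodes the matrix protein thrombospondin 1, measured 1704 and 1642 CPM in WT and 962 and 1075 CPM in Ch25hKO (log2 fold change -0.72 ± 0.06 (SE), adjusted p = 8.77e-08). Cd274, which encodes the checkpoint ligand PD-L1, measured 2584 and 2555 CPM in WT and 1862 and 2005 CPM in Ch25hKO (log2 fold change -0.41 ± 0.06 (SE), adjusted p = 3.38e-05). Both groups were apart for these genes. C3ar1, the receptor for complement C3a, measured 2098 and 1950.4 CPM in WT and 1461 and 1547 CPM in Ch25hKO (log2 fold change -0.43 ± 0.06 (SE), adjusted p = 1.91e-05), and its LXRdKO libraries were above WT at 2849.6 and 2937 CPM. Samhd1, an enzyme that degrades nucleotides, Clic4, a chloride channel protein, and Zfp36, which destabilises cytokine messenger RNAs, fell by 0.38, 0.39 and 0.67 on the log2 scale. Ctsd, a lysosomal protease, fell by 0.25, a call lost without the first Ch25hKO library.

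Gene lists by function were then counted against the 19.8% called higher and 19.5% called lower among all genes. Examples beyond the largest changes and the lowest p-values were chosen after their values were seen.

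**Figure D3:**
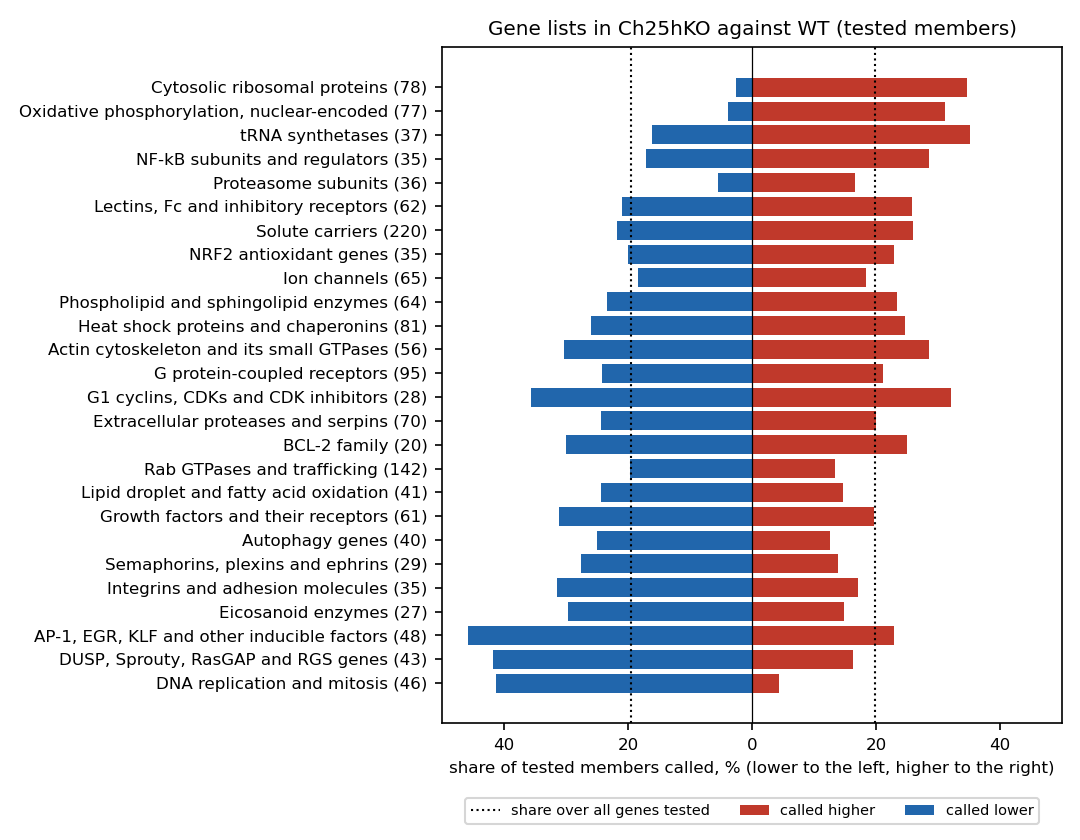
Share of the tested members called lower (blue, to the left) and higher (red, to the right) in Ch25hKO for 26 functional lists, with the number of tested members in brackets. Dotted lines mark the shares over all genes tested. DNA replication and mitosis, the dual-specificity phosphatase list and the inducible factors reach furthest to the left, and ribosomal proteins and oxidative phosphorylation have few members called lower.

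Genes of DNA replication and mitosis were called lower more often than higher. Of 46 tested, 19 were called lower (41.3%) and 2 higher (4.35%), and 25 were not called, with a median log2 fold change of -0.33. Tpx2, a spindle assembly factor, measured 92.7 and 79.6 CPM in WT and 36.1 and 41.3 CPM in Ch25hKO (log2 fold change -1.15 ± 0.08 (SE), adjusted p = 1.2e-08). Cdt1, which licenses replication origins, fell by 1.09, the kinesin Kif23 by 1.31 and the replication clamp Pcna by 0.40 on the log2 scale. The 2 genes called higher were Mki67, the proliferation marker, at 113 and 127 CPM in WT and 225 and 198 CPM in Ch25hKO (log2 fold change 0.82 ± 0.07 (SE), adjusted p = 3.5e-08), and Mcm3, a subunit of the replicative helicase, whose call was lost without the first Ch25hKO library. With only genes of at least 5 CPM, 9 members were called lower. The list's median in LXRdKO against WT was -0.81.

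Regulators of G1 moved in both directions, with 9 of 28 called higher and 10 lower (median -0.10). Beside Ccnd1, the pocket protein gene Rbl1 measured 75 and 63.7 CPM in WT and 39.4 and 42.5 CPM in Ch25hKO (log2 fold change -0.76 ± 0.07 (SE), adjusted p = 1.84e-07). Its relative Rbl2 measured 20.2 and 22.4 CPM in WT and 35.1 and 32.9 CPM in Ch25hKO (log2 fold change 0.67 ± 0.07 (SE), adjusted p = 5.33e-07). Cdkn1b, which encodes the CDK inhibitor p27, measured 13.8 and 15.4 CPM in WT and 24.1 and 24.9 CPM in Ch25hKO (log2 fold change 0.74 ± 0.08 (SE), adjusted p = 5.08e-07). Rbl1 was thus lower, and Rbl2 and Cdkn1b higher, in both Ch25hKO libraries than in both WT libraries.

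Inducible transcription factors, of the AP-1, EGR, KLF and other families, counted 22 of 48 lower (45.8%) and 11 higher (22.9%), with a median of -0.21. Fos measured 32.9 and 30.7 CPM in WT and 17.3 and 19.4 CPM in Ch25hKO (log2 fold change -0.79 ± 0.07 (SE), adjusted p = 1.15e-07). Nr4a1, an orphan nuclear receptor, measured 10.4 and 11.3 CPM in WT and 3.69 and 4.89 CPM in Ch25hKO (log2 fold change -1.34 ± 0.15 (SE), adjusted p = 4.92e-06). Etv3, a repressor of the ETS family, measured 119 and 109 CPM in WT and 62.5 and 67.8 CPM in Ch25hKO (log2 fold change -0.81 ± 0.07 (SE), adjusted p = 3.73e-08). Fosb fell from a low level, at 0.608 and 0.506 CPM in WT and 0.115 and 0.138 CPM in Ch25hKO (log2 fold change -2.12 ± 0.48 (SE), adjusted p = 0.00177). Egr1 and Klf4 also fell, at log2 fold changes of -0.50 and -0.90. Of the 11 members that rose, Klf7 changed most, at 13.8 and 17.1 CPM in WT and 34.2 and 30.3 CPM in Ch25hKO (log2 fold change 1.06 ± 0.09 (SE), adjusted p = 7.21e-08), followed by Cebpd, Klf2 and Klf3, at log2 fold changes of 0.85, 0.72 and 0.66.

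Feedback inhibitors of kinase and G protein signals (dual-specificity phosphatases, Sprouty, RasGAP and RGS genes) had 18 of 43 members lower (41.9%) and 7 higher (16.3%), with a median of -0.24. Dusp1, the phosphatase that ends p38 signalling in macrophages, measured 494 and 486 CPM in WT and 296 and 310.0 CPM in Ch25hKO (log2 fold change -0.69 ± 0.07 (SE), adjusted p = 3.87e-07). Rgs2 measured 31.5 and 24.1 CPM in WT and 9.73 and 10.2 CPM in Ch25hKO (log2 fold change -1.48 ± 0.11 (SE), adjusted p = 8.14e-08), and Spry2 measured 6.91 and 4.54 CPM in WT and 1.75 and 1.86 CPM in Ch25hKO (log2 fold change -1.66 ± 0.19 (SE), adjusted p = 2.25e-06). Spry1 moved the other way from a low level, at 0.180 and 0.184 CPM in WT and 0.738 and 0.780 CPM in Ch25hKO (log2 fold change 2.04 ± 0.39 (SE), adjusted p = 0.000455). The number called higher was 4, 3 and 4 without the first WT library, the first Ch25hKO library and the second Ch25hKO library, 4 with DESeq2 and 3 with at least 5 CPM in 2 libraries.

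Growth factors and their receptors had 12 of 61 higher and 19 lower (median -0.10). Hbegf, a ligand of the EGF receptor, measured 6.71 and 5.41 CPM in WT and 1.5 and 1.70 CPM in Ch25hKO (log2 fold change -1.92 ± 0.17 (SE), adjusted p = 6.9e-08). Vegfa, the angiogenic factor, measured 93.6 and 104 CPM in WT and 66.5 and 66.7 CPM in Ch25hKO (log2 fold change -0.57 ± 0.06 (SE), adjusted p = 6.3e-07). Of the PDGF genes, the ligand genes Pdgfa and Pdgfb fell, at -0.81 and -1.0, and the receptor gene Pdgfrb measured 4.75 and 5.32 CPM in WT and 12.5 and 12.6 CPM in Ch25hKO (log2 fold change 1.32 ± 0.10 (SE), adjusted p = 1.59e-08). Inhba, a subunit of activin, fell by 0.73 and was lower still in LXRdKO, at 25.1 and 28.8 CPM. Pdgfrb and Pdgfra, which also rose, are stromal markers as well, and the levels of that list are given further on. The number called higher was 7 without either Ch25hKO library.

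Semaphorins, plexins and ephrins, which guide cell contacts, had 8 of 29 lower and 4 higher, the latter Epha4, Sema6b, Sema4a and Plxnd1 (median -0.20). Plxnc1, a plexin of leukocytes, measured 67.5 and 67.6 CPM in WT and 45.7 and 44.2 CPM in Ch25hKO (log2 fold change -0.59 ± 0.05 (SE), adjusted p = 1.16e-07). Among integrins and other adhesion genes, 6 of 35 were higher and 11 lower (median 0.05), and 7 were lower without the second Ch25hKO library. Itgb8 measured 49.3 and 46 CPM in WT and 70.2 and 74.0 CPM in Ch25hKO (log2 fold change 0.60 ± 0.06 (SE), adjusted p = 2.02e-07). Itgb7 measured 30.5 and 26.6 CPM in WT and 14.9 and 16.9 CPM in Ch25hKO (log2 fold change -0.84 ± 0.08 (SE), adjusted p = 1.78e-07), and Pecam1, an adhesion molecule of endothelial cells and leukocytes, measured 9.84 and 11.4 CPM in WT and 5.42 and 4.89 CPM in Ch25hKO (log2 fold change -1.04 ± 0.11 (SE), adjusted p = 1.32e-06). Of the other integrin beta chains, Itgb5 fell by 0.49 on the log2 scale, and Itgb1, Itgb2 and Itgb3 were not called. With at least 5 CPM in 2 libraries, 2 genes of the semaphorin list were higher and 5 lower.

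Genes of the actin cytoskeleton and its small GTPases had 16 of 56 higher and 17 lower (median -0.02), and 9 were higher without either Ch25hKO library. Dock10, a guanine nucleotide exchange factor, measured 223 and 216 CPM in WT and 139 and 141 CPM in Ch25hKO (log2 fold change -0.65 ± 0.06 (SE), adjusted p = 7.02e-08). Cdc42ep2, an effector of Cdc42, measured 16.2 and 17.4 CPM in WT and 28.3 and 28.6 CPM in Ch25hKO (log2 fold change 0.76 ± 0.07 (SE), adjusted p = 8.99e-08), and Vcl, which encodes vinculin, measured 26.3 and 27.5 CPM in WT and 42.7 and 38.1 CPM in Ch25hKO (log2 fold change 0.59 ± 0.06 (SE), adjusted p = 1.42e-06). Zyx, a focal adhesion gene, and Vim, the intermediate filament gene, fell by 0.58 and 0.40 on the log2 scale.

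Extracellular proteases and serpins counted 14 of 70 higher and 17 lower (median -0.02), and the number higher was 9 without the first Ch25hKO library and 8 with at least 5 CPM in 2 libraries. The urokinase genes Plau and Plaur fell: Plau, the enzyme, measured 14.1 and 12.2 CPM in WT and 5.67 and 5.85 CPM in Ch25hKO (log2 fold change -1.19 ± 0.11 (SE), adjusted p = 2.28e-07), and Plaur, its receptor, measured 68.8 and 66.1 CPM in WT and 37.9 and 41.6 CPM in Ch25hKO (log2 fold change -0.76 ± 0.06 (SE), adjusted p = 3.53e-08). Serpinb2, the inhibitor of this enzyme, rose, at 38.7 and 37.2 CPM in WT and 72.2 and 86.7 CPM in Ch25hKO (log2 fold change 1.06 ± 0.07 (SE), adjusted p = 1.59e-08). Timp3, an inhibitor of metalloproteases, rose from a low level, at 1.04 and 0.714 CPM in WT and 3.23 and 2.64 CPM in Ch25hKO (log2 fold change 1.74 ± 0.24 (SE), adjusted p = 1.75e-05). Enzyme and receptor were lower, and the inhibitor higher, in each Ch25hKO library than in each WT library.

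G protein-coupled receptors had 20 of 95 higher and 23 lower (median 0.005). C5ar1, the receptor for the complement fragment C5a, measured 250.1 and 256 CPM in WT and 444 and 434 CPM in Ch25hKO (log2 fold change 0.80 ± 0.05 (SE), adjusted p = 2.18e-09), in contrast to C3ar1 above. P2ry2, a receptor for extracellular ATP, measured 23.8 and 25.2 CPM in WT and 43.3 and 42.9 CPM in Ch25hKO (log2 fold change 0.81 ± 0.06 (SE), adjusted p = 1.26e-08). Fpr1, the receptor for bacterial formyl peptides, and both adenosine receptor genes Adora2a and Adora2b rose, at 0.67, 0.48 and 0.46. Gpr137b, a lysosomal membrane protein, measured 60.6 and 61.5 CPM in WT and 30.9 and 31.0 CPM in Ch25hKO (log2 fold change -0.98 ± 0.06 (SE), adjusted p = 7.74e-10), and Gpr35 measured 65.2 and 63.8 CPM in WT and 38.7 and 40.1 CPM in Ch25hKO (log2 fold change -0.71 ± 0.05 (SE), adjusted p = 1.95e-08). Gpr35 was above WT in LXRdKO, at 93.8 and 89.8 CPM.

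Of 65 ion channel genes, 12 were higher and 12 lower (median 0.05), and 7 were lower without the second Ch25hKO library. Orai2, a pore subunit of store-operated calcium entry, measured 80.6 and 84.3 CPM in WT and 158 and 155 CPM in Ch25hKO (log2 fold change 0.92 ± 0.05 (SE), adjusted p = 2.93e-10), and Orai1 rose by 0.47 on the log2 scale. Hvcn1, the proton channel that supports the phagocyte oxidase, measured 21.3 and 21.6 CPM in WT and 41.6 and 41.5 CPM in Ch25hKO (log2 fold change 0.95 ± 0.06 (SE), adjusted p = 1.08e-09). P2rx7, the ATP-gated channel, measured 59.5 and 63.5 CPM in WT and 39.1 and 42.7 CPM in Ch25hKO (log2 fold change -0.59 ± 0.06 (SE), adjusted p = 5.55e-07), so that P2ry2 rose and P2rx7 fell.

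Lectins, Fc receptors and inhibitory receptors had 16 of 62 higher and 13 lower (median 0.01). Fcgr2b, the inhibitory Fc receptor, measured 478 and 506 CPM in WT and 818 and 822 CPM in Ch25hKO (log2 fold change 0.74 ± 0.05 (SE), adjusted p = 1.03e-08). Siglece, an inhibitory receptor for sialic acid, measured 17.2 and 20.1 CPM in WT and 36.1 and 34.6 CPM in Ch25hKO (log2 fold change 0.93 ± 0.08 (SE), adjusted p = 4.49e-08), and Pilra measured 55.8 and 60.0 CPM in WT and 93.8 and 94.0 CPM in Ch25hKO (log2 fold change 0.70 ± 0.06 (SE), adjusted p = 3.05e-08). Cd300lf, a receptor for phospholipids, fell, at 83.8 and 78.3 CPM in WT and 36.0 and 38.3 CPM in Ch25hKO (log2 fold change -1.13 ± 0.06 (SE), adjusted p = 2.31e-10). Siglece and Pilra were higher still in LXRdKO, at 44.3 and 39.5 and 129.5 and 122 CPM.

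Of 27 eicosanoid genes, 4 were higher (Ptges, Lta4h, Pla2g7 and Pla2g4a) and 8 lower (median -0.08). Ptges, the inducible prostaglandin E synthase, measured 497 and 459.7 CPM in WT and 739 and 794 CPM in Ch25hKO (log2 fold change 0.68 ± 0.06 (SE), adjusted p = 5.5e-08). Hpgd, which degrades prostaglandins, measured 7.25 and 6.65 CPM in WT and 3.48 and 3.42 CPM in Ch25hKO (log2 fold change -1.01 ± 0.13 (SE), adjusted p = 8.82e-06). Mgst3, a microsomal glutathione transferase, and Alox5ap, which presents arachidonate to 5-lipoxygenase, fell by 1.07 and 0.26. The number called higher was 2 without any 1 library other than the first WT library, and also 2 with RLE scaling, with DESeq2, with only the libraries compared and with the replicate block.

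Enzymes of phospholipids and sphingolipids had 15 of 64 higher and 15 lower (median -0.03). Pcyt2 rose, as given above, and Pcyt1a, the matching enzyme for phosphatidylcholine, fell. Pcyt1a measured 82.6 and 72.1 CPM in WT and 42.6 and 45.9 CPM in Ch25hKO (log2 fold change -0.81 ± 0.07 (SE), adjusted p = 4.15e-08). Sgms1, which makes sphingomyelin, measured 50.2 and 50.4 CPM in WT and 100.4 and 94.8 CPM in Ch25hKO (log2 fold change 0.96 ± 0.05 (SE), adjusted p = 3.49e-10), and Asah2, a ceramidase, measured 47.5 and 50.2 CPM in WT and 34.1 and 34.4 CPM in Ch25hKO (log2 fold change -0.51 ± 0.06 (SE), adjusted p = 1.24e-06). Lpcat1, which remodels phosphatidylcholine, rose by 0.54 on the log2 scale. Sgms1 and Asah2 both lie within 5 Mb of Ch25h.

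Genes of lipid droplets and fatty acid oxidation had 6 of 41 higher and 10 lower (median -0.05), and 3 were higher without the second Ch25hKO library. Plin2, the droplet coat protein, measured 718 and 641 CPM in WT and 477 and 526 CPM in Ch25hKO (log2 fold change -0.44 ± 0.06 (SE), adjusted p = 2.96e-05). Hilpda, an inhibitor of triglyceride lipase, measured 103 and 99.4 CPM in WT and 65.7 and 69.2 CPM in Ch25hKO (log2 fold change -0.59 ± 0.06 (SE), adjusted p = 2.08e-07). Cd36, the fatty acid translocase, measured 208 and 202 CPM in WT and 147 and 145 CPM in Ch25hKO (log2 fold change -0.49 ± 0.05 (SE), adjusted p = 4.98e-07). These 3 fell, whereas Fabp5, a fatty acid carrier, measured 99.7 and 91.0 CPM in WT and 145 and 148 CPM in Ch25hKO (log2 fold change 0.62 ± 0.05 (SE), adjusted p = 9.69e-08) and Dgat2, which makes triglyceride, measured 12.7 and 13.1 CPM in WT and 18.8 and 19.8 CPM in Ch25hKO (log2 fold change 0.58 ± 0.09 (SE), adjusted p = 3.37e-05).

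Among housekeeping complexes, more members were called higher than lower, by small amounts. Cytosolic ribosomal proteins had 27 of 78 higher (34.6%) and 2 lower, Rplp0 and Rpl3, with a median of 0.10. Nuclear genes of oxidative phosphorylation had 24 of 77 higher (31.2%) and 3 lower, Ndufa1, Ndufa9 and Atp5a1, also with a median of 0.10. The summed level of the oxidative list overlapped between groups, at 3612 and 3290 CPM in WT and 3538 and 3590 in Ch25hKO. That of the ribosomal list did not, at 10975 and 10999 CPM in WT and 11532 and 11835 in Ch25hKO. Rpl37 measured 102 and 108 CPM in WT and 127 and 129.5 CPM in Ch25hKO (log2 fold change 0.29 ± 0.05 (SE), adjusted p = 0.00025), and Atp5g1, a subunit of ATP synthase, measured 13.6 and 13.9 CPM in WT and 17.6 and 19.6 CPM in Ch25hKO (log2 fold change 0.44 ± 0.08 (SE), adjusted p = 0.000324). These counts rest on both Ch25hKO libraries: the ribosomal count was 12 without the first and 7 without the second, and the oxidative count 10 and 7. DESeq2 on all libraries called 8 of the oxidative genes higher. The medians of both lists in LXRdKO against WT were 0.10 and 0.15, with the same WT libraries.

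Proteasome subunits had 6 of 36 higher and 2 lower, Psma3 and Psme4 (median 0.04). Without the first WT library 11 were higher, and without the second 7 were lower. The number lower was 4 with RLE or upper-quartile scaling and 5 with at least 5 CPM in 2 libraries. Of 37 tRNA synthetases, 13 were higher (35.1%) and 6 lower, with a median of 0.20, and 8 were higher without the first Ch25hKO library. Iars, for isoleucine, measured 14.8 and 15.6 CPM in WT and 24.0 and 24.1 CPM in Ch25hKO (log2 fold change 0.66 ± 0.07 (SE), adjusted p = 1.54e-06). Rars, for arginine, measured 164 and 148 CPM in WT and 107 and 109 CPM in Ch25hKO (log2 fold change -0.53 ± 0.06 (SE), adjusted p = 9e-07), and Wars, for tryptophan, measured 95.4 and 86.3 CPM in WT and 64.9 and 69.1 CPM in Ch25hKO (log2 fold change -0.44 ± 0.06 (SE), adjusted p = 2.39e-05). The list is thus divided between enzymes that rose and enzymes that fell.

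Heat shock genes had 20 of 81 higher and 21 lower (median 0.05). Hspa1a, an inducible HSP70 gene, measured 375 and 332 CPM in WT and 139 and 169.7 CPM in Ch25hKO (log2 fold change -1.20 ± 0.10 (SE), adjusted p = 5.12e-06), and its near-identical copy Hspa1b fell by 0.98, with reads that cannot be assigned surely to either. Dnaja1, a cochaperone, measured 1025 and 934 CPM in WT and 676 and 724 CPM in Ch25hKO (log2 fold change -0.49 ± 0.06 (SE), adjusted p = 5.88e-06). Dnajc1, a chaperone of the endoplasmic reticulum, measured 128 and 137 CPM in WT and 203 and 195 CPM in Ch25hKO (log2 fold change 0.58 ± 0.05 (SE), adjusted p = 1.41e-07), and Hspd1 and Hsf1 rose by 0.26 and 0.55. Hspa1a was lower still in LXRdKO, at 108 and 95.4 CPM. Without the first Ch25hKO library, 8 members were higher and 12 lower, and the numbers higher were 9 with DESeq2, 11 without the second Ch25hKO library and 13 without the second WT library.

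NRF2 antioxidant genes had 8 of 35 higher and 7 lower (median 0.09), 4 of them lower without the first Ch25hKO library. Tkt, a transketolase, measured 46.5 and 50.6 CPM in WT and 77.1 and 77.4 CPM in Ch25hKO (log2 fold change 0.67 ± 0.06 (SE), adjusted p = 4.4e-08). Gpx1, a glutathione peroxidase, measured 177 and 163 CPM in WT and 114 and 109 CPM in Ch25hKO (log2 fold change -0.61 ± 0.05 (SE), adjusted p = 9.69e-08), and Gclc, of glutathione synthesis, measured 85.8 and 89.6 CPM in WT and 68.6 and 61.7 CPM in Ch25hKO (log2 fold change -0.43 ± 0.06 (SE), adjusted p = 1.32e-05). Autophagy genes had 5 of 40 higher (Atg2b, Atg9a, Gabarap, Mitf and Wipi1) and 10 lower (median -0.09), with 3 higher without either Ch25hKO library and 8 with no low-count filter. Uvrag measured 88.6 and 85.5 CPM in WT and 61.4 and 63.4 CPM in Ch25hKO (log2 fold change -0.48 ± 0.05 (SE), adjusted p = 1.19e-06), and the cargo receptor Sqstm1 measured 736 and 659 CPM in WT and 514 and 543 CPM in Ch25hKO (log2 fold change -0.40 ± 0.06 (SE), adjusted p = 3.62e-05).

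Solute carriers had 57 of 220 higher and 48 lower (median 0.002), with 36 higher without the first Ch25hKO library. Slc30a1, which exports zinc, measured 176 and 168 CPM in WT and 83.7 and 88.7 CPM in Ch25hKO (log2 fold change -1.0 ± 0.05 (SE), adjusted p = 1.75e-10), and Slc39a14, which imports zinc and iron, measured 105 and 102 CPM in WT and 160.3 and 162 CPM in Ch25hKO (log2 fold change 0.64 ± 0.05 (SE), adjusted p = 2.52e-08). Slc25a1, which exports citrate from mitochondria, measured 21.2 and 20.3 CPM in WT and 38.8 and 37.4 CPM in Ch25hKO (log2 fold change 0.88 ± 0.06 (SE), adjusted p = 8.64e-09). The zinc exporter was lower and the importer higher in both Ch25hKO libraries than in WT. Slc38a2, a transporter of neutral amino acids, and Slc40a1, the iron exporter ferroportin, fell by 0.70 and 0.44.

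Rab GTPases and trafficking genes had 19 of 142 higher and 28 lower (median -0.01), and the number higher was 10 and 9 without the first and second Ch25hKO library and 10 with DESeq2. Stx11, a syntaxin, measured 139 and 124.3 CPM in WT and 77.9 and 84.8 CPM in Ch25hKO (log2 fold change -0.69 ± 0.06 (SE), adjusted p = 1.03e-07), and Stx3 measured 164 and 159.5 CPM in WT and 95.6 and 103 CPM in Ch25hKO (log2 fold change -0.70 ± 0.06 (SE), adjusted p = 2.52e-08). Subunits and regulators of NF-kB had 10 of 35 higher and 6 lower (median 0.009). Irak3, a brake on Toll-like receptor signalling, measured 178 and 184 CPM in WT and 286 and 283 CPM in Ch25hKO (log2 fold change 0.65 ± 0.05 (SE), adjusted p = 1.99e-08), and Rel, which encodes the c-Rel subunit, measured 135 and 131 CPM in WT and 99 and 98.0 CPM in Ch25hKO (log2 fold change -0.43 ± 0.05 (SE), adjusted p = 2.56e-06). Without the second Ch25hKO library 6 were higher, and 3 were lower without either Ch25hKO library. In the BCL-2 family 5 of 20 were higher (Bad, Bax, Bcl2a1a, Bnip3 and Bnip3l) and 6 lower, among them Pmaip1, which encodes the death inducer Noxa, at 38.6 and 35.0 CPM in WT and 13.7 and 16.0 CPM in Ch25hKO (log2 fold change -1.31 ± 0.08 (SE), adjusted p = 1.02e-09). Pmaip1 was also low in LXRdKO, at 13.5 and 14.9 CPM.

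Markers of other cells were read because a marrow culture can hold them. Of 12 tested stromal markers, 10 were higher and none lower, with a median of 1.30. With at least 5 CPM in 2 libraries, 2 were higher. Their summed level was 19.5 and 18.4 CPM in WT, against 45.1 and 41.4 for Ch25hKO and 22.9 and 20.3 for LXRdKO. Col1a2 measured 1.64 and 1.13 CPM in WT and 4.59 and 3.78 CPM in Ch25hKO (log2 fold change 1.59 ± 0.21 (SE), adjusted p = 8.38e-06), and Bgn measured 1.17 and 1.54 CPM in WT and 4.59 and 3.58 CPM in Ch25hKO (log2 fold change 1.59 ± 0.20 (SE), adjusted p = 5.27e-06). Pdgfrb, one of the largest increases, is itself on this list. The part of these cells in other results was not tested. In such bulk samples fewer cells of a type and less RNA per cell cannot be told apart.

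Dendritic cell markers had 5 of 11 lower (Xcr1, Itgae, Kmo, Ccr7 and Clec9a) and none higher, with sums of 52.2 and 52.3 CPM in WT, against 34.2 and 34.8 for Ch25hKO and 38.1 and 41.2 for LXRdKO. Xcr1, the chemokine receptor of cross-presenting dendritic cells, measured 14.5 and 12.8 CPM in WT and 4.64 and 4.95 CPM in Ch25hKO (log2 fold change -1.51 ± 0.10 (SE), adjusted p = 4.35e-09). With at least 5 CPM in 2 libraries, 2 dendritic cell markers were lower. Whether these cells contribute to decreases such as Cytip was not tested. Macrophage markers had 1 of 11 higher, Emr1, which encodes F4/80, at 961 and 965 CPM in WT and 1111 and 1097 CPM in Ch25hKO, and 4 lower, and the summed level was 20775 and 19178 CPM in WT and 19309.7 and 20056 in Ch25hKO. Mertk, a clearance receptor, measured 48.6 and 48.8 CPM in WT and 33.0 and 35.4 CPM in Ch25hKO (log2 fold change -0.51 ± 0.06 (SE), adjusted p = 3.63e-06). The Emr1 call and the call of Fcgr1, also lower, were lost without the first Ch25hKO library. Aif1 was lower too.

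Markers of further blood cells were also counted. Neutrophil markers had 2 of 6 higher and none lower, with sums of 54.1 and 53.0 CPM in WT and 69.3 and 72.2 in Ch25hKO. S100a8, a calcium-binding protein of myeloid cells, measured 35.9 and 35.1 CPM in WT and 48.1 and 50.4 CPM in Ch25hKO (log2 fold change 0.47 ± 0.06 (SE), adjusted p = 3.72e-06), and Mmp8, a collagenase, rose by 0.33 on the log2 scale. Of 5 erythroid and megakaryocyte markers, Pf4, a platelet chemokine that macrophages also express, rose, at 22.4 and 22.8 CPM in WT and 39.9 and 40.9 CPM in Ch25hKO (log2 fold change 0.84 ± 0.07 (SE), adjusted p = 2.46e-08), and Gp9 was lower, at 0.315 and 0.414 CPM in WT and 0.0461 and 0.0917 CPM in Ch25hKO. Their sums were 25.6 and 27.4 CPM in WT and 43.5 and 44.4 in Ch25hKO, mostly Pf4.

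Mast cell and basophil markers had 2 of 3 lower, with sums of 70.5 and 64.9 CPM in WT and 50.1 and 53.6 in Ch25hKO, mostly Hdc, histidine decarboxylase, at 68.4 and 62.4 CPM in WT and 48.6 and 51.5 CPM in Ch25hKO (log2 fold change -0.39 ± 0.06 (SE), adjusted p = 5.43e-05). Gata2 was the other, and of 3 T and NK cell markers Lck was lower. Gp9 and Gata2 were not called without the first Ch25hKO library, and Lck was not called without the first WT or the second Ch25hKO library. DESeq2 called only 1 mast cell marker lower and no marker lower in the T and NK cell or the erythroid and megakaryocyte list. The sums of T and NK cell markers were 5.54 and 4.33 CPM in WT and 4.68 and 4.20 in Ch25hKO. Those of the 4 B cell markers were 2.0 and 2.23 CPM in WT and 2.28 and 1.67 in Ch25hKO. No B cell marker was called by edgeR or DESeq2 with all 6 libraries and no block, and 1, Ms4a1, had an unadjusted p under 0.05. Ms4a1 was called lower by limma-voom, without the first Ch25hKO library and with the crossed replicate block, and Fcer2a was called higher without the second WT library. No WT or Ch25hKO library had a count of the B cell gene Blk, of the mast cell genes Cma1, Fcer1a, Mcpt4 and Tpsb2, of the erythroid genes Hba-a1, Hba-a2, Hbb-b1 and Hbb-b2, or of the stromal gene Thy1.

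The genes around Ch25h on chromosome 19 were examined because a targeted allele carries its flanking segment. Within 1 Mb, 12 of 16 tested genes were called (75%), 2 higher and 10 lower, with a median of -0.81. Over all genes tested, 39.3% were called. The count leaves out Ch25h itself and includes the interferon-induced Ifit1, Ifit2 and Ifit3, which lie beside it. These 3 had log2 fold changes of -0.79, -1.19 and -1.05. I830012O16Rik, Gm14446 and 2010002M12Rik, which lie between Ifit3 and Ifit1, were also called lower, at -1.34, -1.26 and -0.82. The part of this cluster in the count and the median was not tested. Lipa, a lysosomal lipase and the nearest gene, had means of 423 CPM in WT and 301 in Ch25hKO (log2 fold change -0.49 ± 0.05 (SE), adjusted p = 6.85e-07). Within 10 Mb, 73 of 123 genes were called, 26 higher and 47 lower (59.3%).

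Of all chromosomes, chromosome 19 had the highest share of called genes, 46.9%, and of called changes of at least 2-fold, 8.68%. The range over the other chromosomes was 34.8% to 45.7% and 3.10% to 6.99%. Sgms1, Asah2, Cd274 and the lipogenic Scd genes lie within 10 Mb of Ch25h. Blnk, a B cell linker adaptor, had means of 64.4 CPM in WT and 27.5 in Ch25hKO (log2 fold change -1.23 ± 0.06 (SE), adjusted p = 7.3e-11), and Cpeb3, which binds messenger RNA, fell by 1.0 on the log2 scale. Whether linked sequence takes part in these values was not tested.

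**Figure D4:**
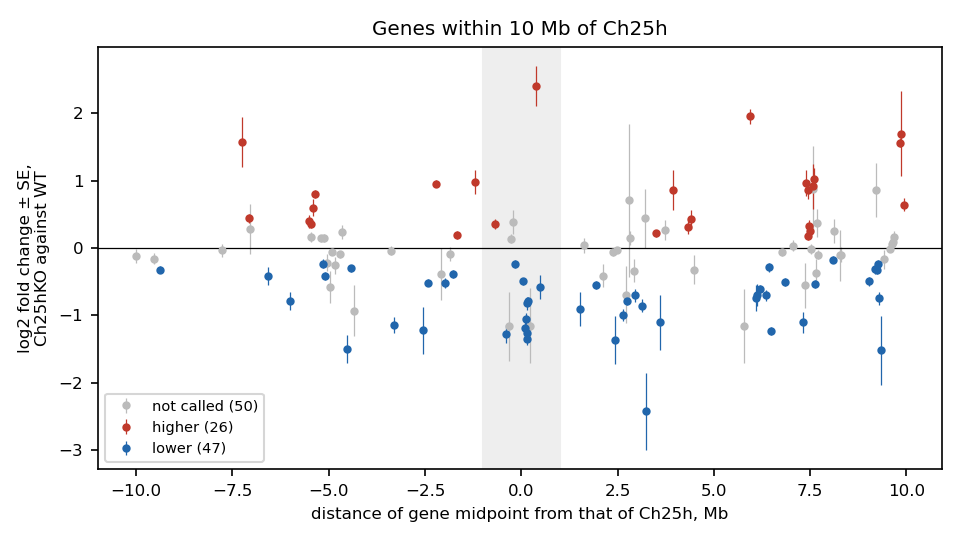
Log2 fold change ± SE of Ch25hKO against WT (vertical axis) for genes within 10 Mb of Ch25h on chromosome 19, by distance in Mb (horizontal axis), with Ch25h itself not drawn. Red points are called higher, blue points lower and grey points neither, and the grey band marks 1 Mb. Blue points crowd just beyond Ch25h, where the Ifit genes lie.

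A few genes differed by amounts that set both knockouts apart from WT. Erdr1 was nearly absent from WT, with 3 and 1 counts, against 403 and 347 counts in the Ch25hKO libraries and 356 and 355 in those of LXRdKO. Entpd4, of which near-identical copies exist, had 16 and 18 counts in WT, against 201 and 191 in Ch25hKO libraries and 146 and 159 in those of LXRdKO. Nnt, a mitochondrial transhydrogenase known to be partly deleted in C57BL/6J mice, measured 25.6 and 26.4 CPM in WT and 13.4 and 13.2 CPM in Ch25hKO (log2 fold change -0.97 ± 0.07 (SE), adjusted p = 8.5e-09), and its LXRdKO libraries were at 16.4 and 15.8 CPM. A difference in strain background cannot be told apart from genotype here.

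Set against LXRdKO directly, Ch25hKO had 2406 genes higher (18.6%) and 2492 lower (19.3%), and 1585 and 1504 were higher without the first Ch25hKO library and without the second LXRdKO library. The Ch25hKO libraries used here are those that chose the 15 largest changes, so their values are given as a description. The increases of Pcyt2, Cbr2 and Scarb1 had log2 fold changes in LXRdKO against WT of -0.15, 0.05 and -0.26. The direct difference for Scarb1 was 1.51 ± 0.08 (SE, adjusted p = 5.75e-11). Mid1 stood out the other way, at 5.38 and 5.13 CPM in WT and 12.1 and 12.8 CPM in Ch25hKO and 68.5 and 76.0 CPM in LXRdKO. Mid1 ends at base 169990798 of chromosome X, and Erdr1, described above, starts nearby at 170010526. Whether strain background takes part in the Mid1 values was not tested. Slc1a2, a glutamate transporter, was at 13.2 and 12.9 CPM in LXRdKO and 13.8 and 13.9 CPM in Ch25hKO. Klf7 and Rbl2 also rose in LXRdKO against WT, at 0.90 and 0.60.

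Decreases divided likewise. Ccnd1, Uaca, Igsf9, Abcb1a and Xcr1 had log2 fold changes in LXRdKO against WT of 0.15, -0.09, 0.21, 0.21 and 0.02, and the direct difference between the knockouts for Ccnd1 was -2.0 ± 0.08 (SE, adjusted p = 1.6e-10). Serpina3g and Dusp10 were low in both knockouts, at -1.67 and -1.29 in LXRdKO. For Serpina3g the direct difference was -0.18 ± 0.10 (SE, adjusted p = 0.146). Pmaip1, Zfp36, Gclc, Sqstm1, Kif23 and Pdgfa were also low in LXRdKO against WT, at -1.37, -0.88, -0.76, -0.72, -1.14 and -0.95. Cd36, Hilpda and Plxnc1 were lower there too, at -0.60, -0.50 and -0.52. These decreases are thus not particular to Ch25hKO. Tlr9 and Gpr35 lay below WT in Ch25hKO and above it in LXRdKO, with direct differences of -1.76 ± 0.06 (SE, adjusted p = 3.34e-13) and -1.22 ± 0.05 (SE, adjusted p = 7.45e-12). The macrophage gene Mertk showed the same order, with a direct difference of -1.16 ± 0.06 (SE, adjusted p = 6.89e-11).

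**Figure D5:**
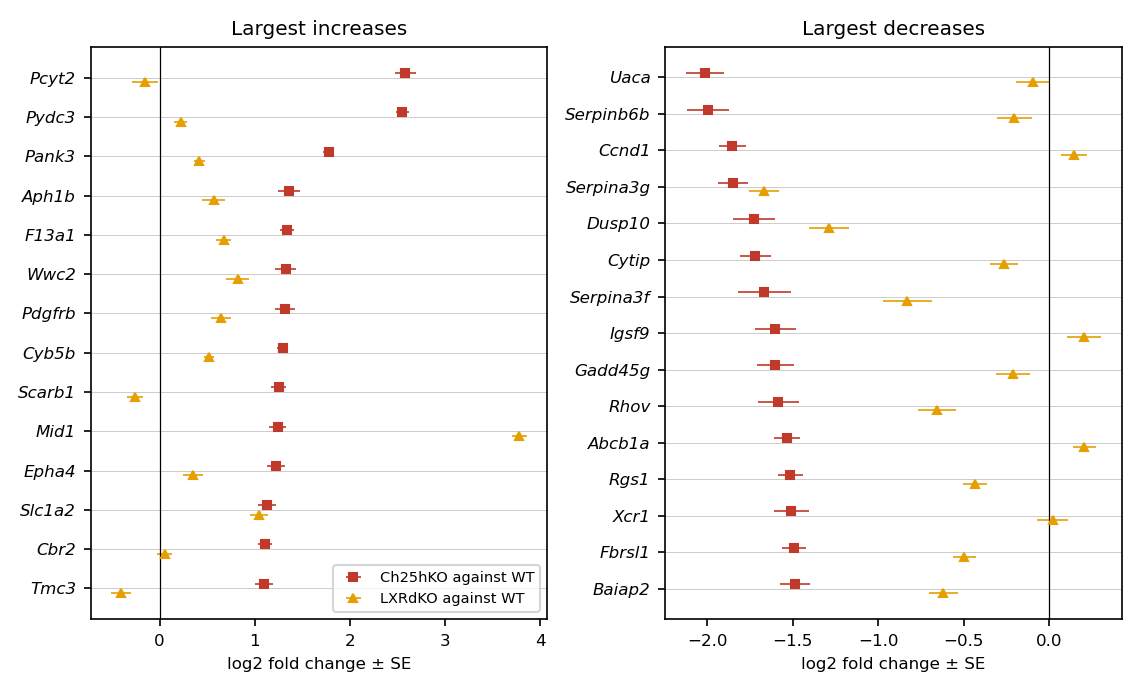
Log2 fold change ± SE against WT (horizontal axis) of 14 of the 15 largest increases (left) and the 15 largest decreases (right) in Ch25hKO (red squares) and in LXRdKO (orange triangles). Both sets of values use the same WT libraries and the genes were chosen on Ch25hKO. Of the genes drawn, only Mid1 has its triangle farther from 0 than the square.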

How the data were processed

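RNA of bone marrow-derived macrophages was amplified with an Ovation kit and sequenced, per the labels' protocols. The authors deposited whole-number read counts for each gene symbol in 1 table, without normalization. The submitters' processing notes name CASAVA, STAR 2.3.0, HTSeq and mm10. Annotation, counting mode and strandedness are not stated in labels or headers, so reads of overlapping, antisense or near-identical genes may be assigned to either gene, and amplified reads are not independent molecules.

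Of 23337 symbols, 5683 had no count. edgeR 4.0.16 in R 4.3.3 (filterByExpr, TMM, robust quasi-likelihood, all 6 libraries) tested 12923 genes, which held 99.98% of the counts. There were 3 residual degrees of freedom, and the common BCV, the replicate spread beyond counting error, was 4.41%. A gene was called where its adjusted p (Benjamini-Hochberg) was under 0.05. The SE is the log2 fold change divided by the square root of F. CPM use TMM-scaled library sizes. On simulated counts for Ch25hKO against WT (12923 genes, 200 of them changed), 63% of 1.5-fold and 86% of 2-fold changes were recovered, with 5 false calls. Far more genes were called in the data, and the simulated spread followed only the trend with expression. These shares therefore need not hold for the data.

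Named genes were the 3 targeted genes, the 15 largest called increases and decreases with a mean of at least 5 CPM, no overlap and an informative symbol, the 8 largest gains and losses in CPM, the 4 lowest p in each of 26 functional and 8 marker lists, and genes with at least 100 counts in one group and at most 3 in the other (none). Sterol synthesis genes with liver X receptor targets, interferon-stimulated genes and cytokines were excluded from this naming, and a few genes are not reported here. Members and lists were chosen with earlier results of these data known. Replicate numbers did not pair the libraries, and the check is given with the alternatives.

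Alternatives were RLE and upper-quartile scaling, DESeq2 1.42.0, limma-voom (limma 3.58.1), no filter, at least 5 CPM in 2 libraries, only the libraries compared, the replicate block, and each library left out, which assumes that a lone library varies like the other groups. Gene positions and promoter windows are from RefSeq GRCm38.p6, where 12835 tested genes were placed, and a gene counted as holding a motif where any of its windows did.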

Additional observations from a re-analysis of the deposited data

How the results depend on the processing

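Direction and call were recomputed under 15 alternatives. Of 3236 recomputed values of 218 named genes, 3205 kept both. Reversals were seen for 5 low marker genes that were not called. With each library left out in turn, the log2 fold change ranged from -0.16 to 0.52 for Cr2, -0.50 to 2.53 for Fcer2a, -0.59 to 0.36 for Kit, -0.093 to 0.36 for Ppbp and -0.55 to 0.13 for Itga2b. With libraries left out, the number of genes higher than WT ranged from 1501 to 2478 (2557 with all) and the number higher than LXRdKO from 1504 to 2828 (2406 with all). With at least 5 CPM in 2 libraries, 68 genes were called at least 2-fold higher (194 with the usual filter) and 130 at least 2-fold lower (413), since fewer low genes were tested. DESeq2 called 1760 genes higher and 2031 lower. No scaling moved the median of all genes by 0.02 or more.

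Of 34 lists, 13 had a median of at least 0.1 in size, and none of these changed sign, against 13 of the 21 smaller medians. Of 1016 recomputed list counts, 83 moved by over 1.5 times, 56 of them with a library left out. Same-numbered WT and Ch25hKO libraries did not deviate together (r = -0.31 across 8141 genes), so the numbers were not taken as pairs. With the replicate block, 2372 genes were higher and 2393 lower, and no named gene's call changed. With the Ch25hKO numbers crossed, an alternative chosen after seeing the data, the counts were 2682 and 2638. Counting error limits genes under 1 CPM, where changes under 2-fold were rarely called.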
